A study of Mus musculus with 128 samples.

Results

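The Kdm4 family of histone demethylases was followed through early mouse development by taking the 4 genes named Kdm4a, Kdm4b, Kdm4c and Kdm4d out of the 41300 genes of the table. RNA had been sequenced from single C57BL/6 mouse oocytes at MII and from single embryos of 2, 4 or 8 cells, in 16 labelled replicates for each stage and genotype. The 8 groups were, at each of the 4 stages, Kdm4a knockout, labelled m-/p- (no intact maternal or paternal allele), and wildtype, labelled m+/p- (an intact maternal allele only). Knockout and wildtype oocytes were both fertilized with Kdm4a knockout sperm, so the wildtype embryos also lacked an intact paternal copy, and the wildtype at the 2-cell stage and later is a maternal contrast rather than a fully wildtype embryo. Embryos of the 2 genotypes were sampled together at 1.5, 2.5 and 3.5 days after fertilization, the later stages when control embryos had reached them. The zona was removed, so only the oocyte or embryo itself, with any attached cells, entered the tube. No label ties an embryo to a mother, so p-values reflect only how much oocytes or embryos of a group vary, and which exons the knockout allele lacks was not stated in the labels.

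Kdm4 enzymes are dioxygenases that use iron and 2-oxoglutarate in a JmjC domain to remove methyl groups from histone H3, from lysine 9 and lysine 36 by Kdm4a, Kdm4b and Kdm4c and from lysine 9 by Kdm4d. Kdm4a, Kdm4b and Kdm4c also carry PHD and Tudor domains that read histones, which the shorter Kdm4d lacks. In the oocyte and the early embryo, lysine 9 trimethylation marks silent chromatin that has to be remodelled as the embryo takes over transcription from stored maternal RNA. The comparison asked whether the RNA of Kdm4b, Kdm4c or Kdm4d is higher where Kdm4a is lost.

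The 4 coding sequences are shown over a stretch of the JmjC domain that was picked by a fixed residue pattern. It opens with the codon of an iron-binding histidine and runs past the codon of an iron-binding glutamate. Each line has 48 bases, read 5′ to 3′ from the longest coding transcript of the gene in GENCODE M21 (build mm10). Capitals mark bases that differ from Kdm4a.
Kdm4a: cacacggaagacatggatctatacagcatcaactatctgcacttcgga
Kdm4b: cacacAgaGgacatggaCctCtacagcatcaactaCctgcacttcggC
Kdm4c: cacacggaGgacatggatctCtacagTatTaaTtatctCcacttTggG
Kdm4d: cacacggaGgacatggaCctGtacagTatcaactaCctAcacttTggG
From Kdm4a, the stretch differs at 6 bases in Kdm4b, 8 in Kdm4c and 8 in Kdm4d, and in all 6 pairs of members it encodes the same residues, with 0 residues differing. It lies in exon 5 of the Kdm4a transcript at chr4:118168399-118168446 on the minus strand, in exon 5 of Kdm4b at chr17:56355995-56356042 on the plus strand, in exon 5 of Kdm4c at chr4:74298573-74298620 on the plus strand, and in exon 2 of Kdm4d at chr9:14463949-14463996 on the minus strand. Over the coding bases that aligned between a pair, identity was 72.8% (Kdm4c with Kdm4d) to 77.8% (Kdm4a with Kdm4b).

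These differences let reads be told apart by member. The longest run of bases shared exactly by transcripts of any pair was 26, between Kdm4c and Kdm4d, against a read length of 150 bases. No run of 50 bases was shared between members, and none of Kdm4a, Kdm4b or Kdm4c occurred in an annotated transcript of another gene. Of the 2860 distinct 50-base runs of Kdm4d, 292 (10.2%) also occurred in Kdm4dl or Gm9361, genes not analysed here, so some Kdm4d reads could belong to them. Counts that were not whole made up 25.9% of the nonzero values of Kdm4c. The shares were 2.70% for Kdm4a, 3.45% for Kdm4b, 5.63% for Kdm4d and 30.6% over all genes. The origin of these fractions was not tested.

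The genes are ENSMUSG00000033326.15 (Kdm4a, chr4:118136957-118180043, minus strand), ENSMUSG00000024201.12 (Kdm4b, chr17:56326074-56402864, plus strand), ENSMUSG00000028397.13 (Kdm4c, chr4:74242497-74405860, plus strand) and ENSMUSG00000053914.9 (Kdm4d, chr9:14462548-14500482, minus strand). Kdm4a, Kdm4b and Kdm4c each have 23 merged exon blocks in the table and Kdm4d has 2. No exonic base of a member was shared with an overlapping gene that had been counted. Kdm4c also overlaps the antisense gene A230083N12Rik, which was not among the genes counted. Whether A230083N12Rik shares exonic bases with Kdm4c was not measured. Whether the counting used strand was not stated in the labels, so antisense reads within Kdm4c exons could not be told apart.

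After 1 nearly empty 8-cell knockout library (replicate 4, 419 counts) was left out, 127 libraries with 528377 to 4657857 counts were used (median 2130015). Among these, 2 knockout libraries go against their 8-cell label. The library labelled 8-cell knockout replicate 7 had 9638 detected genes, 18.9% mitochondrial counts and 2884 CPM (counts per 1000000 counts of a library) summed over 7 oocyte markers, against a median of 37.8 CPM in its group. On log-scale levels it correlated at 0.863 with the wildtype MII median profile and at 0.582 with that of its own group, and all 4 members were at 0 in it. The library labelled 8-cell knockout replicate 16 was nearest to the 4-cell profiles, with a correlation of 0.939 to its own group. MII knockout replicate 15 had the fewest detected genes of its stage (11139). Results that leaving out MII knockout replicate 15 or 8-cell knockout replicate 7 moves or ends are given both ways. The 8-cell knockout replicate 16 was left out only for genotype differences of the 4 members within its stage. Listed genes and stage changes were not fitted without it. CPM are shares of a library, so a lower value can mean fewer transcripts of a gene or more of the others. A count of 3 equals 0.64 to 5.68 CPM in a single knockout library, and values in that range are near the limit of detection.

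**Figure D1:**
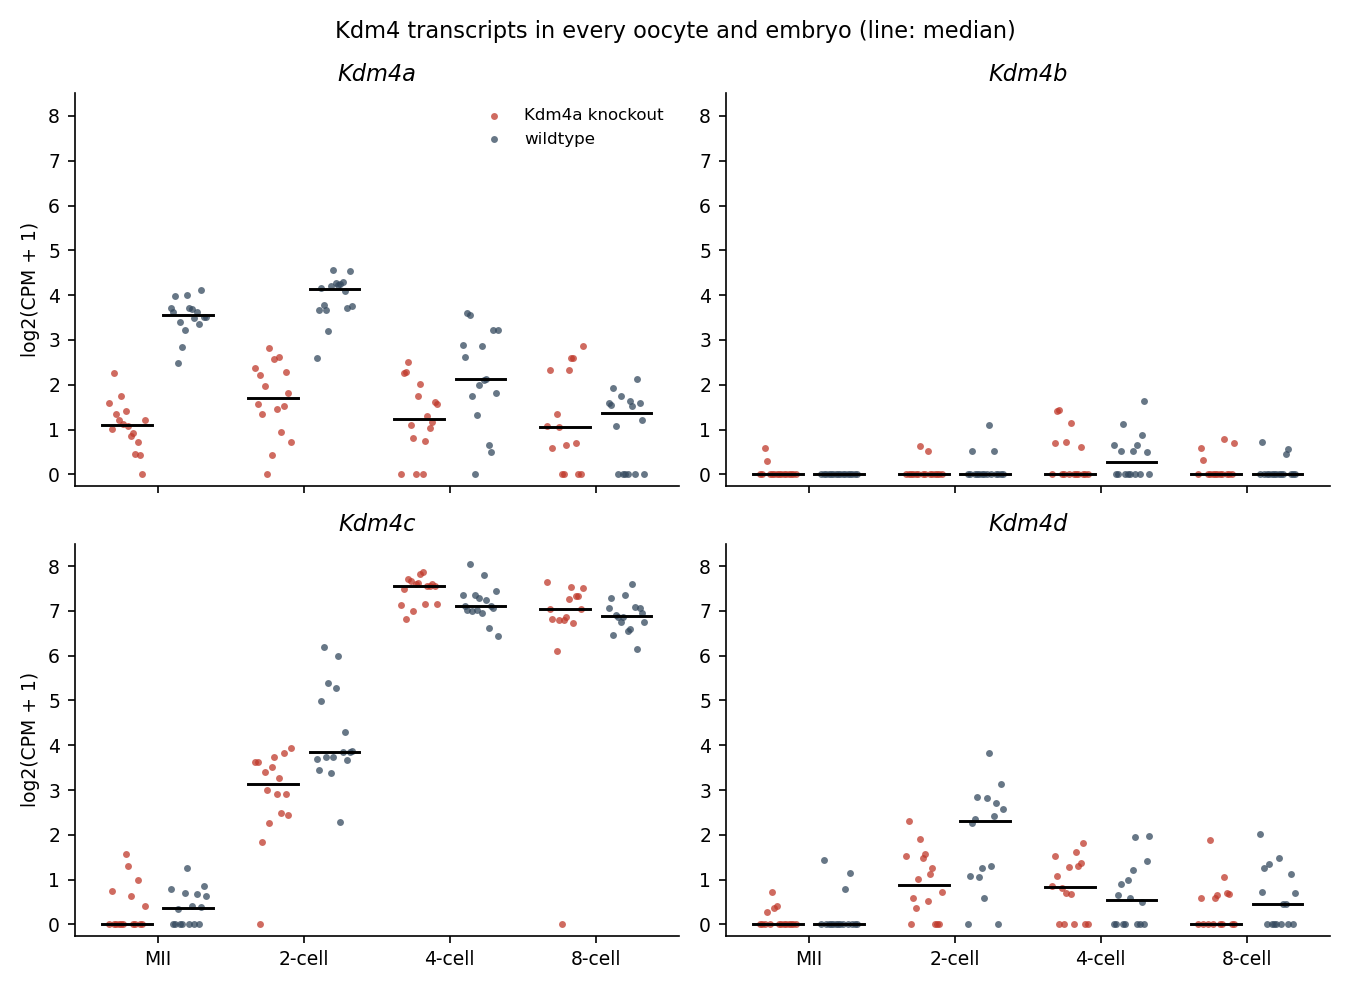
Level of each Kdm4 gene in every library, as log2(CPM + 1) on the vertical axis, by stage on the horizontal axis, with Kdm4a knockout libraries left of wildtype and black lines at group medians. Kdm4a separates the genotypes at MII, and at the 2-cell stage 14 of 16 knockout embryos lie below the lowest wildtype embryo. Kdm4c is high at the 4-cell and 8-cell stages in both genotypes, and Kdm4b stays at or near 0.

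Kdm4a, the targeted gene, was lower in knockout oocytes and 2-cell embryos. At MII it was at 0 to 3.76 CPM in 16 knockout oocytes (median 1.15) and at 4.60 to 16.2 CPM in 16 wildtype oocytes (median 10.9). All 16 knockout oocytes lay below the lowest wildtype oocyte. The means were 1.28 ± 0.904 and 10.9 ± 3.05 CPM (SD, n = 16 each), a log2 fold change (knockout minus wildtype) of -3.001 with a standard error of 0.244 and an adjusted p of 4.96e-11 by edgeR's quasi-likelihood test. Replicates 1 to 8 alone averaged 1.86 CPM in knockout and 10.3 CPM in wildtype (log2 fold change -2.41), and replicates 9 to 16 alone averaged 0.692 CPM in knockout and 11.5 CPM in wildtype (-3.92). The gene was called in each set, and the difference between the sets was not tested. Of the 7680 genes tested at MII, 12% were called at an adjusted p below 0.05, which is the rule for a call throughout, and 6.69% were called lower in the knockout.

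At the 2-cell stage Kdm4a was at 0 to 6.02 CPM in knockout embryos (median 2.26) and at 5.09 to 22.6 CPM in wildtype embryos (median 16.5). Here 14 of 16 knockout embryos lay below the lowest wildtype embryo. Its log2 fold change was -2.42 (standard error 0.298, adjusted p = 3.32e-07, edgeR), where 17.3% of 8728 genes were called. Some Kdm4a counts thus remained in the knockout, 72 summed over the MII oocytes and 91 over the 2-cell embryos. The counts cover the whole gene, so reads from exons outside the deletion would be included.

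By the later stages the wildtype level itself was low, and the separation of the genotypes narrowed. At the 4-cell stage Kdm4a was at 0 to 4.72 CPM in knockout embryos (median 1.36) and at 0 to 11.1 CPM in wildtype embryos (median 3.36). The ranges overlapped, and 13 of 16 knockout embryos lay below the wildtype median. The mean difference, -2.82 CPM, had p = 0.00604 in a two-sided permutation test of 100000 resamples, 1 of 16 such tests (4 members at 4 stages), with p-values not adjusted over them. The gene did not pass the filter on low counts, and in the fit of all genes without that filter its log2 fold change of -1.36 had a 95% interval of -2.45 to -0.26 and an adjusted p of 0.108 (edgeR), short of a call, where 10.2% of 26275 genes were called. In a fit of all 8 groups together the same value was called (adjusted p = 0.0175).

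At the 8-cell stage Kdm4a was at 0 to 6.29 CPM in 15 knockout embryos (median 1.08) and at 0 to 3.40 CPM in 16 wildtype embryos (median 1.59). A difference was not detectable at this depth (permutation p = 0.289, 0.21 without knockout replicate 7, and 0.524 without replicate 16), and 5 knockout embryos lay above the highest wildtype embryo. The highest of them was replicate 16, and without it the mean difference was 0.371 CPM, against 0.679 CPM with it.

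Kdm4b, which acts on the same H3 marks as Kdm4a, was barely detected at any stage. Summed over a group's libraries it had 3 counts in knockout and 0 in wildtype oocytes, 2 counts in knockout and 4 in wildtype 2-cell embryos, 12 and 14 at the 4-cell stage, and 5 and 4 at the 8-cell stage. A count of 0 over the 16 wildtype oocytes allows up to 0.059 CPM for the group, by counting error only. The highest single library, a wildtype 4-cell embryo, reached 2.09 CPM. Permutation p-values of the mean difference were 0.482, 0.674, 0.958 and 0.616 from MII to the 8-cell stage. In the fit without the filter the genotype difference was not called at any of the 4 stages, in the same order with adjusted p of 0.251, 0.676, 0.94 and 0.817 (edgeR), where 4.09%, 6.85%, 10.2% and 11.1% of all genes were called. In the fits of adjacent stages without the filter, 2 changes of Kdm4b were called, both on few counts. The step to the 2-cell stage in wildtype had 4 summed counts at the 2-cell stage and 0 at MII (adjusted p = 0.0351, edgeR). At that step 34.9% of all genes rose in wildtype. The step to the 4-cell stage in knockout had 12 summed counts at the 4-cell stage and 2 at the 2-cell stage (adjusted p = 0.0478, edgeR). At that step 17.1% of all genes rose in knockout. The knockout call was lost with RLE factors, the median-ratio scaling of DESeq2, in place of TMM (adjusted p = 0.0926, edgeR). Fitted folds of Kdm4b depend on the prior count at such levels and are not given.

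Kdm4c was close to absent in oocytes of both genotypes. It was at 0 to 1.99 CPM in knockout oocytes, with 10 of 16 at 0, and at 0 to 1.41 CPM in wildtype oocytes, with 7 of 16 at 0. The summed counts were 18 and 17, and the mean difference of 0.0244 CPM had a permutation p of 0.898. Thus no higher Kdm4c level was detectable in the oocytes where Kdm4a was lowest relative to wildtype.

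In 2-cell embryos Kdm4c was lower in the knockout. It was at 0 to 14.4 CPM in knockout embryos (median 7.84) and at 3.88 to 72.5 CPM in wildtype embryos (median 13.4). Wildtype embryos were spread widely, with 5 of 16 at 30.6 CPM or more and the other 11 at 18.8 CPM or less, and 6 wildtype embryos exceeded the highest knockout embryo. Of 16 knockout embryos, 15 lay below the wildtype median. The means were 7.94 ± 4.15 and 23.5 ± 20.2 CPM (SD, n = 16 each). The log2 fold change was -1.52 (standard error 0.353, 95% interval -2.23 to -0.80, adjusted p = 0.00312, edgeR's quasi-likelihood test), and the permutation p of the CPM difference was 0.00029. The call was kept when each embryo was left out in turn (-1.59 to -1.30), while among replicates 9 to 16 alone the log2 fold change of -1.30 had an adjusted p of 0.126 and was not called. At this stage 10% of the genes tested were called lower in the knockout.

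**Figure D2:**
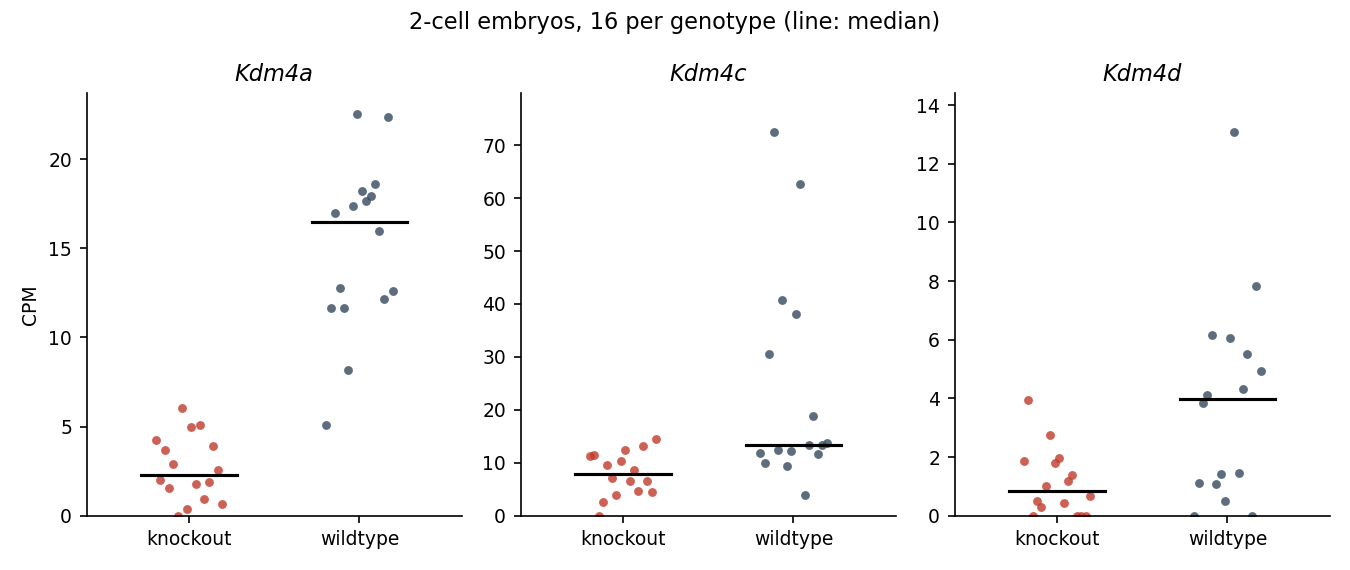
CPM of Kdm4a, Kdm4c and Kdm4d in each 2-cell embryo on linear vertical axes with a scale per gene, knockout left of wildtype, 16 points each, black lines at the medians. Knockout medians are 2.26, 7.84 and 0.832 CPM and wildtype medians 16.5, 13.4 and 3.97 CPM.

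Kdm4d, the short member without the reader domains, moved in the same direction at the 2-cell stage but at much lower counts. It was at 0 to 3.95 CPM in knockout embryos (median 0.832, 4 of 16 at 0) and at 0 to 13.1 CPM in wildtype embryos (median 3.97, 2 of 16 at 0). All 16 knockout embryos lay below the wildtype median, and 8 wildtype embryos exceeded the highest knockout embryo. The means were 1.11 ± 1.13 and 3.84 ± 3.50 CPM (SD, n = 16 each; permutation p = 0.003). It did not pass the filter on low counts. Without that filter the log2 fold change was -1.62 (95% interval -2.63 to -0.60, adjusted p = 0.0398, edgeR), in a fit that called 6.85% of 31322 genes. The adjusted p lay between 0.0232 and 0.0902 when each embryo was left out in turn, and 21 of 32 such fits kept the call. Most of the Kdm4d difference lay in replicates 9 to 16, which averaged 0.7051 CPM in knockout and 5.399 CPM in wildtype. Replicates 1 to 8 averaged 1.522 CPM in knockout and 2.28 CPM in wildtype, and there the knockout median was above the wildtype median. The difference between these sets was not tested.

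Markers of the 2-cell stage moved with these lower levels. The 7 markers listed for that stage, all detected in both genotypes, summed to 180 to 2328 CPM in knockout 2-cell embryos (median 808) and to 729 to 3269 CPM in wildtype 2-cell embryos (median 1610). The 7 markers of the 4-cell and 8-cell stages, of which 6 were detected in each genotype, also had a lower median, at 14.7 to 42.9 CPM in knockout (median 29.98) and 25.0 to 74.4 CPM in wildtype (median 41.7). The 7 oocyte markers summed to like levels, with medians of 5759 CPM in knockout and 5752 CPM in wildtype. Bmp15 (means of 3087 and 2707 CPM) and Oosp1 (2458 and 2964 CPM) made up most of that sum and differed in opposite directions. The 8 cumulus or granulosa cell markers summed to medians of 34.2 CPM in knockout and 30.8 CPM in wildtype embryos. By group means, most of this was Cyp19a1 (22.0 and 17.0 CPM) and Tnfaip6 (8.82 and 11.2 CPM). Has2 averaged 1.90 and 2.12 CPM, and the highest of the others, Fshr, 0.734 and 0.853 CPM. The part of these marker differences in the lower Kdm4c and Kdm4d levels was not tested.

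From the 4-cell stage on, Kdm4c was by far the most abundant member, and the genotypes overlapped. At the 4-cell stage it was at 111 to 233 CPM in knockout embryos (median 188) and at 85.7 to 263 CPM in wildtype embryos (median 137). Of 16 knockout embryos, 14 lay above the wildtype median. The means were 178 ± 35.97 and 149 ± 43.7 CPM (SD, n = 16 each). The log2 fold change of 0.26 had a 95% interval of -0.02 to 0.54 and an adjusted p of 0.197 (edgeR), and was not called, in a stage where 16.4% of 7478 genes were called. The permutation p of the mean CPM difference was 0.0476 before any adjustment, and 0.0568 when CPM were scaled by TMM library sizes. The interval leaves room for a rise of up to 0.54 on the log2 scale.

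At the 8-cell stage Kdm4c was at 0 to 199.7 CPM in 15 knockout embryos (median 130.2) and at 70.0 to 194 CPM in 16 wildtype embryos (median 117). The knockout library at 0 was replicate 7, and the next lowest was at 67.4 CPM. The log2 fold change was 0.03 (95% interval -0.54 to 0.61, adjusted p = 0.952, edgeR), and without replicate 7 it was 0.14 (95% interval -0.15 to 0.44, adjusted p = 0.555). Genes called made up 11.6% of 7219, and 12.4% of 7301 without replicate 7.

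Kdm4d was low outside the 2-cell stage. In MII oocytes it had 6 summed counts in the knockout and 11 in the wildtype (permutation p = 0.375). At the 4-cell stage it averaged 0.93 ± 0.829 and 0.762 ± 0.991 CPM in knockout and wildtype embryos (p = 0.608, permutation test, n = 16 each). In 8-cell embryos it averaged 0.439 ± 0.716 CPM in 15 knockout and 0.688 ± 0.884 CPM in 16 wildtype embryos (permutation p = 0.408, or 0.481 without replicate 7).

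**Figure D3:**
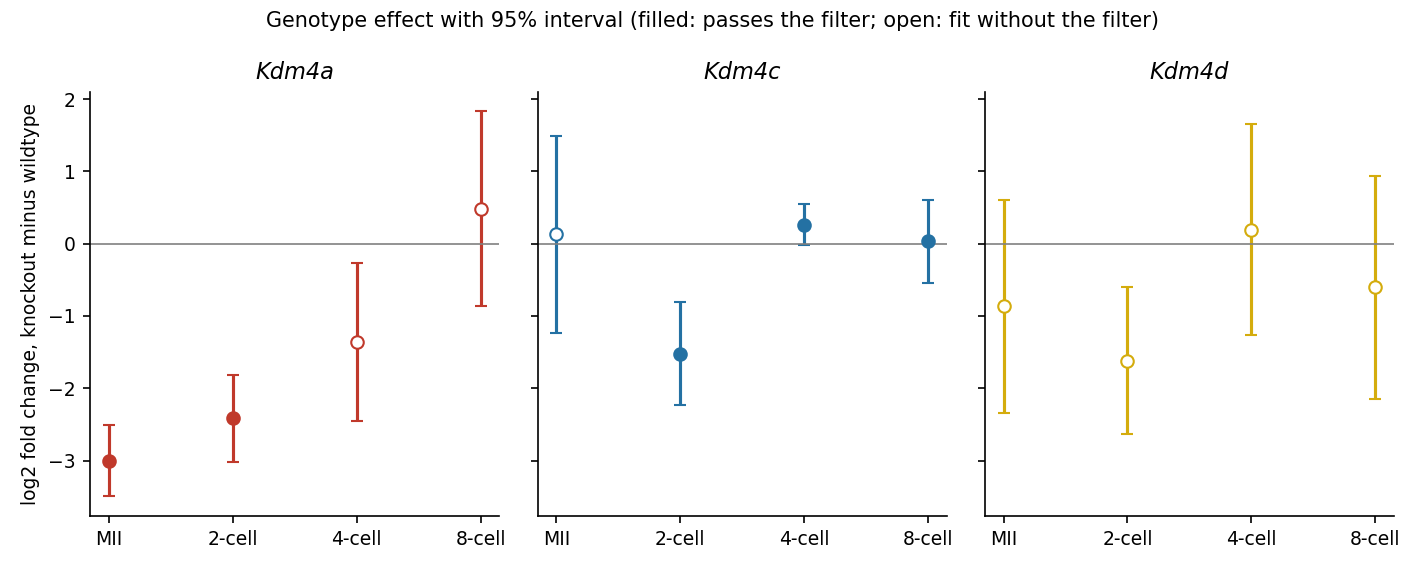
Log2 fold change, knockout minus wildtype, with 95% intervals on the vertical axis by stage for Kdm4a, Kdm4c and Kdm4d, with filled points for genes that passed the filter on low counts and open points for the fit without it. Kdm4a lies at -3.001 at MII and -2.42 at the 2-cell stage, and Kdm4c lies at -1.52 at the 2-cell stage and within 0.26 of 0 at the 4-cell and 8-cell stages.

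Stage by stage, Kdm4c rose steeply in both genotypes, from a lower 2-cell level in the knockout. A stage change was called at an adjusted p below 0.05 and a log2 change of at least 1. From MII to the 2-cell stage Kdm4c rose by 3.92 on the log2 scale in knockout (standard error 0.491, adjusted p = 8.23e-11, edgeR) and by 5.51 in wildtype (standard error 0.484, adjusted p = 1.22e-16, edgeR). The difference of these changes, -1.60 (95% interval -3.21 to 0.02), was not called (adjusted p = 0.263, edgeR). Of 10240 genes tested, 30.6% rose in knockout and 31.9% in wildtype, and 3.99% had a called difference of the changes.

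The next step differed between the genotypes. From the 2-cell to the 4-cell stage Kdm4c rose by 4.20 in knockout (standard error 0.294, adjusted p = 4.55e-21, edgeR) and by 2.42 in wildtype (standard error 0.267, adjusted p = 8.06e-13, edgeR). The difference, knockout change minus wildtype change, was 1.78 (standard error 0.372, 95% interval 1.04 to 2.52, adjusted p = 6.13e-04, edgeR's interaction test). It rests on the same 2-cell embryos as the lower 2-cell level above. Of 10766 genes, 32.6% rose in knockout and 30.5% in wildtype, and 15.5% had a called difference of the changes.

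From the 4-cell to the 8-cell stage the Kdm4c change was -0.41 in knockout (adjusted p = 0.191, edgeR) and -0.18 in wildtype (adjusted p = 0.552), and neither was called. The difference of -0.23 had a 95% interval of -0.86 to 0.40, and of -0.53 to 0.27 without replicate 7 (-0.13). Of 8822 genes, 12% changed in knockout and 20.6% in wildtype, and 2.73% had a called difference of the changes.

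Kdm4a ran the other way in wildtype. From MII to the 2-cell stage its log2 change was 0.63 in knockout (adjusted p = 0.0526, edgeR) and 0.07 in wildtype (95% interval -0.40 to 0.55), and neither was called. From the 2-cell to the 4-cell stage it was -0.93 in knockout, under the size set for a call (adjusted p = 0.0393), and it fell by 2.00 in wildtype (standard error 0.391, adjusted p = 4.53e-06, edgeR). Genes that fell made up 42.4% of those tested in knockout and 43.9% in wildtype. The knockout value passed the size limit with other scaling factors (-1.27 with RLE factors, the median-ratio scaling of DESeq2, in place of TMM), and the difference of the changes, 1.07, was not called (adjusted p = 0.217, edgeR).

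Without the filter, Kdm4a changed by 0.25 in knockout (adjusted p = 0.892, edgeR) and by -1.59 in wildtype (adjusted p = 0.0517) from the 4-cell to the 8-cell stage, and neither was called. The wildtype change was called without knockout replicate 7 (-1.58, adjusted p = 0.0375) and with RLE factors (-1.63, adjusted p = 0.0486). The difference of the changes, 1.84, was not called (adjusted p = 0.268), but was called in a fit of all 8 groups (1.86, adjusted p = 0.0311). Without the filter 9.96% of 28803 genes changed in knockout and 15% in wildtype, and 3.58% had a called difference.

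Kdm4d rose to the 2-cell stage in both genotypes, in the fit without the filter, and a fall after it was called in wildtype. From MII to the 2-cell stage it rose by 2.50 in knockout (adjusted p = 0.001, edgeR) and by 3.34 in wildtype (adjusted p = 1.15e-06), where 33.6% of 32009 genes rose in knockout and 34.9% in wildtype. From the 2-cell to the 4-cell stage its change was -0.63 in knockout, not called (adjusted p = 0.372), and it fell by 2.48 in wildtype (adjusted p = 1.92e-04, edgeR). In that fit 33.1% of 32701 genes fell in knockout and 35.1% in wildtype. The genotypes' changes did not differ by a called amount at either step (adjusted p = 1 and 0.2), where 0.690% and 5.88% of all genes had a called difference. From the 4-cell to the 8-cell stage the changes were -0.88 in knockout and -0.09 in wildtype, neither called.

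**Figure D4:**
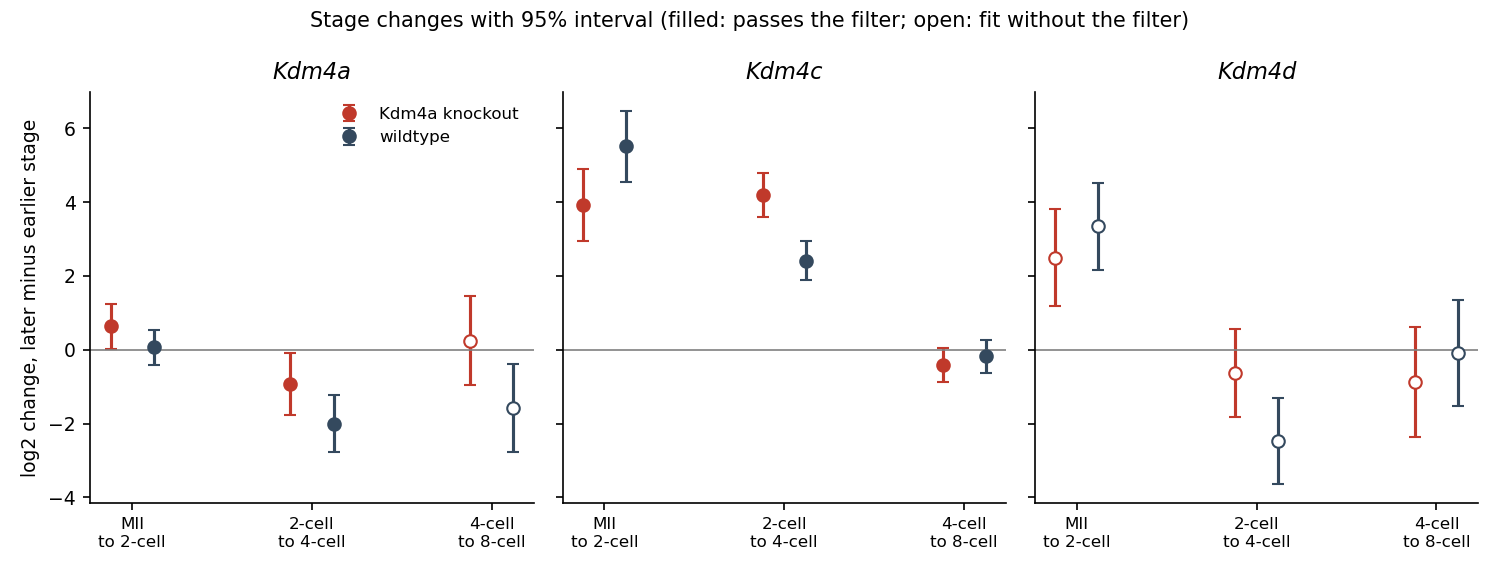
Log2 change from each stage to the next with 95% intervals on the vertical axis, for Kdm4a, Kdm4c and Kdm4d, knockout left of wildtype, with open points for the fit without the filter on low counts. Kdm4c rises in both genotypes up to the 4-cell stage, by 3.92 and then 4.20 in knockout and by 5.51 and then 2.42 in wildtype.

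Levels of different members can be set side by side only per length. On that scale (TPM, transcripts per 1000000, from the gene lengths in the table), the leading member changed between the oocyte and the 4-cell embryo. In MII oocytes Kdm4a averaged 0.599 ± 0.428 TPM in knockout and 5.01 ± 1.45 TPM in wildtype, which was 65.9% and 92.8% of the summed family level. At the 2-cell stage Kdm4c led with 3.77 ± 1.98 TPM in knockout and 10.7 ± 9.05 TPM in wildtype, or 65.8% and 54.7% of the family. Kdm4a was the next with 18.9% and 30.6%, and Kdm4d came after it with 14.9% and 14.5%. The knockout means of Kdm4a (1.08 ± 0.743 TPM) and Kdm4d (0.854 ± 0.875 TPM) lay within their spread of each other.

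At the later stages the family level was almost that of Kdm4c alone. Kdm4c made up 98.1% in knockout and 96.4% in wildtype 4-cell embryos, with 81.8 ± 18.1 and 66.9 ± 20.7 TPM. It made up 98.1% in both genotypes at the 8-cell stage, with 56.8 ± 22.7 and 53.7 ± 13.7 TPM. The other 3 members each averaged under 1 TPM in both genotypes at the 8-cell stage, and their order there lay within their spread.

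Summed over the 4 members, the family was at 0.909 ± 0.631 TPM in knockout and 5.40 ± 1.55 TPM in wildtype oocytes. It was at 5.74 ± 2.41 TPM in knockout and 19.7 ± 10.8 TPM in wildtype 2-cell embryos. In 4-cell embryos the sums were 83.4 ± 18.2 TPM in knockout and 69.4 ± 21.2 TPM in wildtype, and in 8-cell embryos 57.9 ± 23.0 and 54.8 ± 13.6 TPM. These sums are descriptions, and SDs are over 16 libraries, or 15 for the 8-cell knockout.

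**Figure D5:**
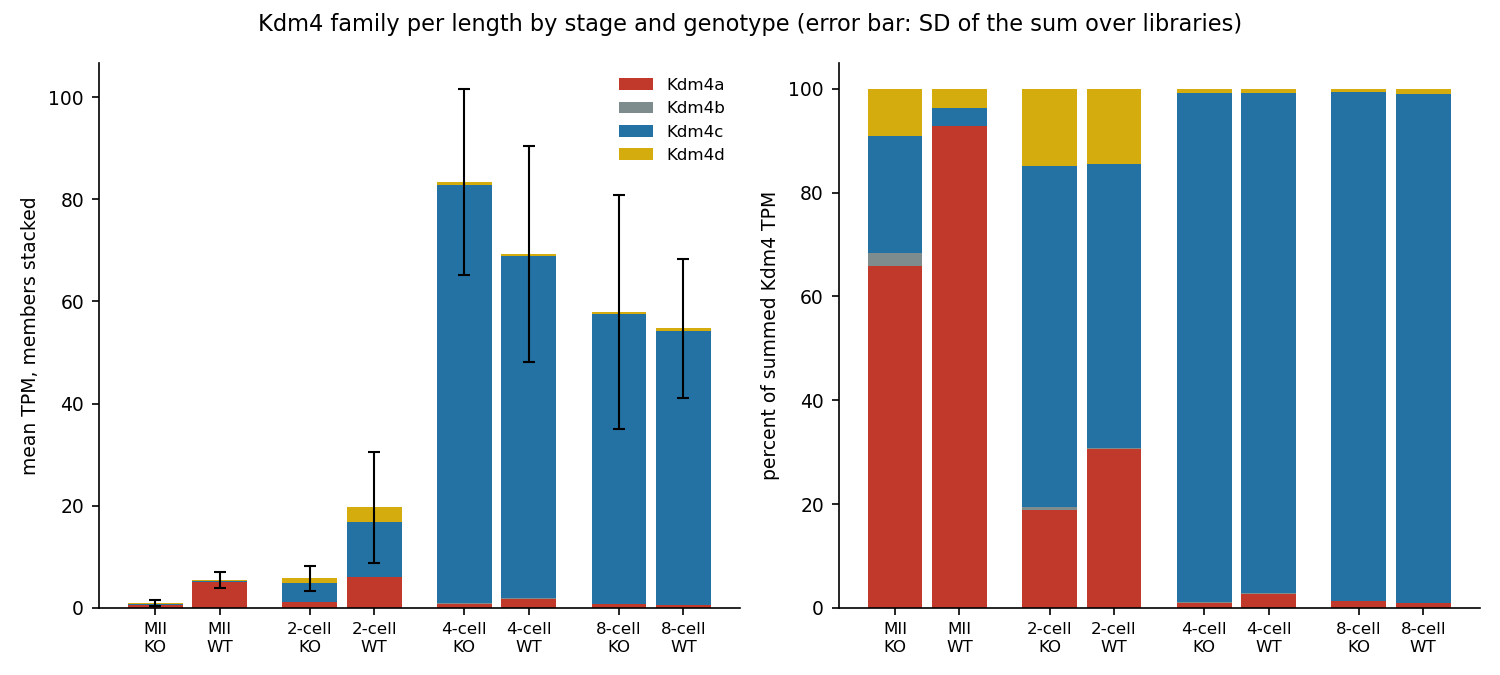
Mean TPM of the 4 members stacked by group (left, bars from 0, error bars the SD of the summed level over libraries) and each member's percent of the summed level (right), knockout left of wildtype at each stage. The sum is lower in knockout oocytes and 2-cell embryos (0.909 and 5.74 TPM) than in wildtype (5.40 and 19.7 TPM), and Kdm4c makes up 96.4% or more of it from the 4-cell stage on.

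Other genes were taken from 5 lists of 49 genes in all, which held enzymes that remove or write H3K9 and H3K36 methylation, partners and turnover factors of Kdm4 proteins, and JmjC demethylases of other marks. Of the genes tested, 8.11% were called at MII, 15.4% at the 2-cell stage, 23.1% at the 4-cell stage and 12.5% at the 8-cell stage, against 12%, 17.3%, 16.4% and 11.6% of all genes tested. The shares of all genes higher in knockout were 5.27%, 7.25%, 8.97% and 8.55%, and the shares lower were 6.69%, 10%, 7.46% and 3.02%. In MII oocytes 0 of 37 were higher and 3 lower, in 2-cell embryos 2 of 39 were higher and 4 lower, in 4-cell embryos 6 of 39 were higher and 3 lower, and in 8-cell embryos 4 of 40 were higher and 1 lower. Without MII knockout replicate 15 there were 1 higher and 4 lower at MII, where 19.6% of all genes were called, and without 8-cell knockout replicate 7 there were 2 higher and 1 lower at the 8-cell stage. Oocyte markers had a higher median in knockout at the 4-cell stage, with all 7 detected in each genotype and sums of 69.9 to 761.2 CPM in knockout (median 122.9) and 14.2 to 197.2 CPM in wildtype (median 56.7). Their part in the 4-cell calls was not tested.

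Among 13 other H3K9 or H3K36 demethylases, of which 12 were in the table, 10 were tested at MII and 0 were called by edgeR. At the 2-cell stage 1 of 10 was higher and 2 were lower, with a list median log2 fold change of 0.06 beside -0.01 over all genes. Phf8, an X-linked demethylase of H3K9me2, rose to 120.3 ± 27.0 CPM in knockout, against 83.9 ± 23.9 CPM in wildtype (log2 fold change 0.57, adjusted p = 0.00263, edgeR; n = 16 each). Kdm3a, which removes H3K9 mono- and dimethylation, fell to 20.5 ± 8.85 CPM in knockout, against 46.9 ± 33.0 CPM in wildtype (-1.13, adjusted p = 0.00511). At the 4-cell stage 2 of 11 were higher and 0 lower by edgeR. Kdm7a, a demethylase of H3K9me2 and H3K27me2, was at 123.6 ± 42.8 CPM in knockout and 61.5 ± 25.9 CPM in wildtype (1.01, adjusted p = 0.00172). Jmjd1c, a relative of Kdm3a, was at 35.96 ± 25.4 and 16.9 ± 13.6 CPM (1.11, adjusted p = 0.0316). Jmjd1c was instead called lower at the 2-cell stage, at 16.16 CPM in knockout and 25.75 CPM in wildtype (-0.64, adjusted p = 0.0161). At the 8-cell stage 1 of 11 was called, Kdm3a, lower at 111.6 ± 42.1 CPM in knockout and 169 ± 45.2 CPM in wildtype (-0.64, adjusted p = 0.0418, or 0.0114 without replicate 7). The list medians at MII, the 4-cell and the 8-cell stage were -0.11, -0.07 and 0.10.

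Of 9 enzymes that write H3K9 methylation, 1 was called at MII, 1 at the 2-cell, 2 at the 4-cell and 1 at the 8-cell stage. Suv39h2, which trimethylates H3K9, was higher at the 2-cell stage, at 163 ± 29.0 CPM in knockout and 135 ± 33.1 CPM in wildtype (0.32, adjusted p = 0.0471, edgeR; n = 16 each). It was also higher at the 4-cell stage, at 33.0 ± 13.03 and 16.1 ± 9.89 CPM (1.01, adjusted p = 0.014). In 8-cell embryos its log2 fold change was 2.03 (adjusted p = 0.0112), and 0.56 (adjusted p = 0.194) without replicate 7. Setdb1, which trimethylates H3K9 at silenced repeats, was lower at the 4-cell stage (39.8 ± 11.1 and 58.1 ± 19.0 CPM; -0.56, adjusted p = 0.0244). Ehmt1, which dimethylates H3K9, was lower at MII (19.6 ± 6.15 and 26.8 ± 6.57 CPM; -0.44, adjusted p = 0.0344). Of the 9, 5 were tested at MII, 7 at the 2-cell, 6 at the 4-cell and 6 at the 8-cell stage, with list medians of -0.14, -0.17, -0.36 and 0.11.

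Of 7 H3K36 methyltransferases, 6 were tested at each stage. Setd2, which trimethylates H3K36, was the 1 called at the 2-cell stage, lower at 84.4 ± 25.3 CPM in knockout and 128 ± 43.9 CPM in wildtype (-0.55, adjusted p = 0.00857, edgeR; n = 16 each). Setd3, listed here as an H3K36 methyltransferase and also known as an actin histidine methyltransferase, was the 1 called at the 4-cell stage, higher at 25.3 ± 11.6 and 11.3 ± 5.37 CPM (1.17, adjusted p = 0.00282). By edgeR 0 were called at MII and 0 at the 8-cell stage, while without MII knockout replicate 15 Nsd1, an H3K36 dimethyltransferase, was called lower (-0.25, adjusted p = 0.0328, against -0.16 and 0.385 with it), and the medians over the 4 stages were 0.00, -0.05, 0.35 and 0.47.

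The list of 11 genes for turnover and partners of Kdm4 proteins had 0 calls by edgeR at the 2-cell stage. At the 4-cell stage 2 of 9 were higher and 1 lower. Cul1, the scaffold of SCF ubiquitin ligases, was at 494 ± 112 CPM in knockout and 195 ± 75.5 CPM in wildtype, with all 16 knockout embryos above the wildtype median (1.34, adjusted p = 7.53e-07, edgeR). Cul1 RNA was abundant in oocytes, at 3789 ± 562 CPM in knockout and 3504 ± 456 CPM in wildtype. Rnf168, a ubiquitin ligase of the DNA damage response, was lower at 46.0 ± 17.2 and 69.4 ± 19.1 CPM (-0.61, adjusted p = 0.014). At MII Hsp90ab1, an HSP90 chaperone, was lower at 217 ± 75.2 and 288 ± 41.6 CPM (-0.40, adjusted p = 0.0264). Without replicate 15 Skp1a was also called there (0.35, adjusted p = 0.0131, against 0.31 and 0.0509 with it). In 8-cell embryos 3 of 11 were higher, namely Cul1, Ncor1 and Tbl1xr1. Without replicate 7 there were 2, Ncor1 and Skp1a, a subunit of the SCF ligases (0.39, adjusted p = 0.0138, against 0.38 and 0.0551 with it). Cul1 was at 1.61 (adjusted p = 0.0262) with replicate 7 and at 0.06 (adjusted p = 0.819) without it. Ncor1, a corepressor that binds Kdm4a, was higher with it (1.15, adjusted p = 0.00954) and without it (0.64, adjusted p = 0.0122). Tbl1xr1, a subunit of the same corepressor, was at 2.50 (adjusted p = 0.0127) with it and at 0.97 (adjusted p = 0.165) without it. The list medians were 0.06, 0.15, -0.03 and 0.31 over the 4 stages.

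Among 9 other JmjC demethylases, of which 5 to 7 were tested at a stage, 1 was called at each of the first 3 stages, all lower in knockout. Kdm6b, which acts on H3K27, was at 6.10 ± 2.38 CPM in knockout and 9.15 ± 2.58 CPM in wildtype at MII (-0.58, adjusted p = 0.0317, edgeR; n = 16 each). Kdm5b, which acts on H3K4, was at 41.5 ± 19.1 and 83.3 ± 44.5 CPM at the 2-cell stage, with all 16 knockout embryos below the wildtype median (-0.94, adjusted p = 0.0083). Jmjd6, a JmjC hydroxylase, was at 86.6 ± 38.6 and 131 ± 31.6 CPM at the 4-cell stage (-0.62, adjusted p = 0.0218). The list medians were -0.19, -0.35, -0.17 and -0.10, and by edgeR 0 of 6 were called at the 8-cell stage.

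The genes whose pattern over the 127 libraries was most like that of each member were ranked by Pearson correlation of log2(CPM + 1) among 8865 genes. Libraries of a stage share most of their profile, so these values largely describe stage patterns. Libraries of both genotypes entered the ranking, so genotype differences within a stage, as for Kdm4a, add to the values too. Kdm4c had correlations of 0.981 with Dppa4, a gene of pluripotent cells, 0.98 with Znhit3 and 0.979 with Ctsl, a lysosomal protease. Dppa4 averaged 0.576, 27.2, 724 and 605 CPM in knockout from MII to the 8-cell stage, and 1.11, 60.2, 645 and 718 CPM in wildtype. At the 2-cell stage Znhit3 averaged 48.4 CPM in knockout and 114 CPM in wildtype, and Ctsl 84.0 and 192 CPM. The 3 genes were picked for a pattern like that of Kdm4c over these same libraries. Their lower 2-cell means in knockout are therefore not a separate result, and their genotype differences were not tested here.

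Kdm4a was most like 3 genes with clone names on chromosome X, namely RP23-269P17.1 (0.703), RP23-285I7.1 (0.691) and RP23-198G4.1 (0.652). RP23-285I7.1 averaged 3.63 CPM in knockout and 41.8 CPM in wildtype oocytes, and 4.31 and 35.7 CPM in 2-cell embryos. RP23-269P17.1 averaged 2.55 and 19.3 CPM in oocytes and RP23-198G4.1 averaged 4.06 and 22.4 CPM. These genes lie on another chromosome than Kdm4a, and the table gives them no other name. They were also picked for a pattern like that of Kdm4a over these same libraries. Their genotype differences are therefore not a separate result and were not tested here.

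Kdm4d was most like Pramef6 on chromosome 4 (0.634), RP23-174O6.1 on chromosome 12 (0.627) and RP23-149D11.4 on chromosome 4 (0.625). Each had its highest means at the 2-cell stage, with Pramef6 at 12.1 CPM in knockout and 29.8 CPM in wildtype. These genes were picked in the same way, so their genotype differences are likewise not a separate result. Kdm4b, with few counts, reached no more than 0.46, with RP23-167G19.12.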

How the data were processed

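Per the submitters' processing notes, the authors trimmed reads with Trimmomatic 0.32, aligned them with STAR 2.5.1a to mm10 and counted them with featureCounts 1.5.1. The deposited table holds estimated counts per gene, unnormalized, of which 30.6% of nonzero values are not whole (25.9% for Kdm4c, 2.70% for Kdm4a). The labels name both a SMART-Seq v4 and a stranded kit. Here values were rounded to the nearest whole number, libraries under 100000 counts left out, and CPM and TPM computed (0 sample columns lay outside the map). Genotypes were compared within a stage, and adjacent stages in fits of 4 groups, by edgeR 4.0.16 (quasi-likelihood, robust, TMM factors, filterByExpr, Benjamini-Hochberg), tested on simulated data. Permutation tests used 100000 resamples. Alternatives used limma 3.58.1 and DESeq2 1.42.0 in R 4.3.3. Intervals and detection limits cover counting or model error only. The members, lists and tests were chosen with earlier results of these data known. Named genes are the members, up to 2 called genes of smallest p per list and stage, and the 3 most correlated genes per member of at least 5 mean CPM, leaving out provisional symbols (Gm numbers, Rik, and AC, AL, BC or AI numbers); clone names beginning RP were not in that pattern and stayed in. Sequences and Ensembl IDs are from GENCODE M21, and gene positions from the table.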

Additional observations from a re-analysis of the deposited data

Results flagged for a closer look

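The rise of Kdm4c from the 2-cell to the 4-cell stage differed between the genotypes. It was larger in knockout (4.20 on the log2 scale) than in wildtype (2.42), and the test of the difference itself, knockout change minus wildtype change, gave 1.78 (adjusted p = 6.13e-04, edgeR's interaction test, n = 16 in each of the 4 groups). At the earlier stage 15 of 16 knockout embryos lay below the wildtype median. At the later stage 14 of 16 lay above it, but the genotype difference at that stage was not called. The interaction rests on the same 2-cell embryos as the lower 2-cell level. Of 10766 genes, 15.5% had a called difference of the changes at this step.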

How the results depend on the processing

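Of 192 values of Kdm4 members under other settings, leaving out single replicates aside, 177 kept their direction and side of the threshold. Stage changes of Kdm4b were not among these values. Kdm4c at the 2-cell stage lost its call in replicates 9 to 16 alone (-1.30). At the 4-cell stage the Kdm4c difference was 29.8 CPM with TMM library sizes, past 0.05, and the Kdm4a value of -1.36 was called in the fit of all 8 groups. The Kdm4a change in knockout to the 4-cell stage was called with RLE factors (-1.27), DESeq2 (-1.31) and all 8 groups (-1.04). Its wildtype change to the 8-cell stage was called with RLE factors (-1.63), all 8 groups (-1.60) and without knockout replicate 7 (-1.58), and their difference with all 8 groups (1.86). Values that were never called changed sign for Kdm4c at MII on the log2 scale (-0.0245), for Kdm4c at the 8-cell stage on the log2 scale (-0.304), with the replicate block (-0.0715) and in replicates 1 to 8 alone (-0.313), and for the wildtype Kdm4a change to the 2-cell stage without the filter (-0.0825). The cause was not tested.

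Leaving out each replicate in turn gave, for differences that changed sign or side, -0.0834 to 0.0951 CPM (Kdm4c, MII), -0.0955 to 0.00444 CPM (Kdm4b, 2-cell), -0.0983 to 0.101 CPM (Kdm4b, 4-cell) and 25.2 to 37.0 CPM (Kdm4c, 4-cell), and log2 fold changes of -1.85 to -1.40 (Kdm4d, 2-cell) and -0.00878 to 0.143 (Kdm4c, 8-cell).

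Replicate numbers are not stated to pair the samples. Same-numbered libraries had median correlations of deviations of 0.0139, -0.0297, 0.0454 and 0.0190 from MII to the 8-cell stage. In the same order, 5, 3, 4 and 5 of these pairs exceeded 0.1. Such correlations cannot decide whether the numbers pair samples, since paired libraries need not deviate together. With the replicate block Kdm4c at the 2-cell stage was at -1.26 (adjusted p = 0.0452, edgeR), and 115 genes were called at the 8-cell stage, against 835 without it.

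Counts of genes called by genotype differed by over 1.5 times from the main 919, 1506, 1229 and 835 as follows. Replicates 1 to 8 alone gave 140 (4-cell) and 1 (8-cell), and replicates 9 to 16 alone gave 164, 140, 412 and 112. All 8 groups in 1 fit gave 247, 890, 2080 and 3383. No filter gave 2670 (4-cell) and 2895 (8-cell, where the median log2 fold change moved to 0.13), or 2677 and 3547 with RLE factors. At MII limma gave 1563, and leaving out knockout replicate 15 gave 1517 (1490 with no filter). At the 8-cell stage leaving out replicate 7 gave 1733 with no filter, and the split of higher and lower calls moved from 617 and 218 to 507 and 396. Stage changes without the filter were called for 13545, 16420 and 2869 genes in knockout and 14100, 16904 and 4319 in wildtype. With the filter they were called for 5041, 8077 and 1056 in knockout and 5235, 8008 and 1816 in wildtype, and at the last step with all 8 groups for 2490 and 3033. Differences of stage changes, against 409 and 241 for the first and last steps, were called for 221 and 1030 genes with no filter, for 116 and 1632 with all 8 groups, for 658 (DESeq2) and 651 (without replicate 15) at the first step, and for 484 (RLE) at the last. Of 210 alternative values of list genes, 56 lost the call and 0 changed direction. Alternatives that leave out libraries that stand apart, that pair RLE with no filter and that leave out replicates for CPM differences were chosen after seeing the data. Kdm4b and Kdm4d lie near the detection limit, where depth sets what can be seen.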
